A study of Mus musculus with 8 samples.

Results

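The genes described here are the JAK, STAT and SOCS signaling core, 10 genes chosen by symbol: the kinases Jak1 and Jak2, the transcription factors Stat3, Stat5a, Stat5b and Stat6, and the feedback inhibitors Cish, Socs1, Socs2 and Socs3. They are 10 of the 55414 gene identifiers in the count table and 10 of the 14458 genes with enough counts for a test. Bulk RNA-Seq was performed on mammary tumors grown in WT mice from the PyMt cell line, which was established from a tumor of the MMTV-PyMt transgenic strain (C57BL/6 background). Over 4 tumors 20 nmol calcipotriol, a vitamin D analog, was applied to the skin, and over 4 tumors the solvent, EtOH. Treatment was given every 2 days from day 2 after implantation, and tumors were taken 24 hours after the last dose. Tumor recipients in the growth experiments were 6 to 8 weeks old. The MMTV promoter drives the transgene in mammary epithelium, and all tumors descend from 1 line. The total per tumor ranged from 19685419 to 25084713 counts, and 3 counts equal 0.12 to 0.152 CPM, the counts scaled to a common library size. The p-values below measure only the spread between these tumors.

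JAK kinases sit on the inner ends of cytokine receptors and phosphorylate STAT proteins, which then enter the nucleus and switch genes on. SOCS proteins and Cish are themselves switched on by STATs and damp the same receptors. In the mammary gland, prolactin acts through Jak2 and Stat5a, and Stat3 acts in involution after lactation.

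The tumors were first compared with each other. In genes averaging 50 counts or more, chi-square per gene was 21.4 to 118 within EtOH (6 pairs) and 47.8 to 148 within calcipotriol (6 pairs), so every pair differed by more than counting error. This does not show that the tumors are independent; each was taken as 1 replicate. The median absolute log2 difference was 0.22 between EtOH replicates 1 and 2 and 0.192 between EtOH replicates 3 and 4, against 0.332 to 0.386 for the other EtOH pairs and 0.194 to 0.344 for the calcipotriol pairs. The EtOH-treated tumors thus lie in 2 close pairs. Calcipotriol replicates 6 and 7 were about as close, at 0.194. The methods call the 4 samples of each group biological replicates. Whether the tumors of a close pair share a mouse, batch or day is not given in the sources used here. If they do, 4 replicates a group overstate the replication. Skeletal muscle markers show the same split, with a summed level of 5.11, 3.99, 41.9 and 41.5 CPM in EtOH replicates 1, 2, 3 and 4. Calcipotriol replicate 1 stood apart from its group in macrophage markers, which summed to 1867 CPM there and to 1007, 1002 and 811 CPM in calcipotriol replicates 5, 6 and 7. The same tumor stood apart in T cell markers, at 17.3 CPM against 6.9, 4.57 and 3.6 CPM in calcipotriol replicates 5, 6 and 7.

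The labels give the cell type as epithelial. Krt8, an epithelial keratin, was at 649, 652, 523 and 548 CPM with EtOH and at 516, 285, 381 and 292 CPM with calcipotriol. Epcam, a defining epithelial marker, had 0 counts in EtOH replicates 1 and 2 and was at 4.29 and 2.87 CPM in EtOH replicates 3 and 4; with calcipotriol it was at 1.51, 1.19, 19.1 and 22.7 CPM (log2 fold change 2.62, adjusted p = 0.328 from edgeR). Krt19 was also at 0 in EtOH replicates 1 and 2, at 6.04 and 7.15 CPM in EtOH replicates 3 and 4 and at 2.34, 2.28, 5.53 and 7.16 CPM with calcipotriol. The tumors also held markers of other cells: the 9 macrophage markers summed to 2092, 2028, 2393 and 2504 CPM with EtOH.

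None of the 10 genes passed both thresholds in edgeR's quasi-likelihood test over all genes. The thresholds were 0.05 for the p adjusted after Benjamini and Hochberg and 1 for the log2 fold change in either direction. The count was 0 of 10, and 2.02% of all genes tested passed. With the adjusted p alone the count was also 0 of 10, against 2.74% of all genes. At an unadjusted p under 0.05 it was 3 of 10 (Jak1, Jak2 and Cish), against 18.4% of all genes. DESeq2 called 1 of 10 past both thresholds (Cish) against 4.47% of all genes, and 2 of 10 by adjusted p alone (Cish and Jak2) against 8.24%. limma-voom called 0 of 10 past both thresholds against 1.9% of all genes, and 0 of 10 by adjusted p alone against 2.73%. The groups did not overlap in CPM for 2 genes that were higher with calcipotriol, Cish and Stat3, and for 1 that was lower, Jak1. Over all genes, 6.32% were higher and 6.16% were lower without overlap. The median log2 fold change was 0.10 over the 10 genes and 0.02 over all genes, and 5 of 10 were above 0 against 52.1% of all genes.

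**Figure D1:**
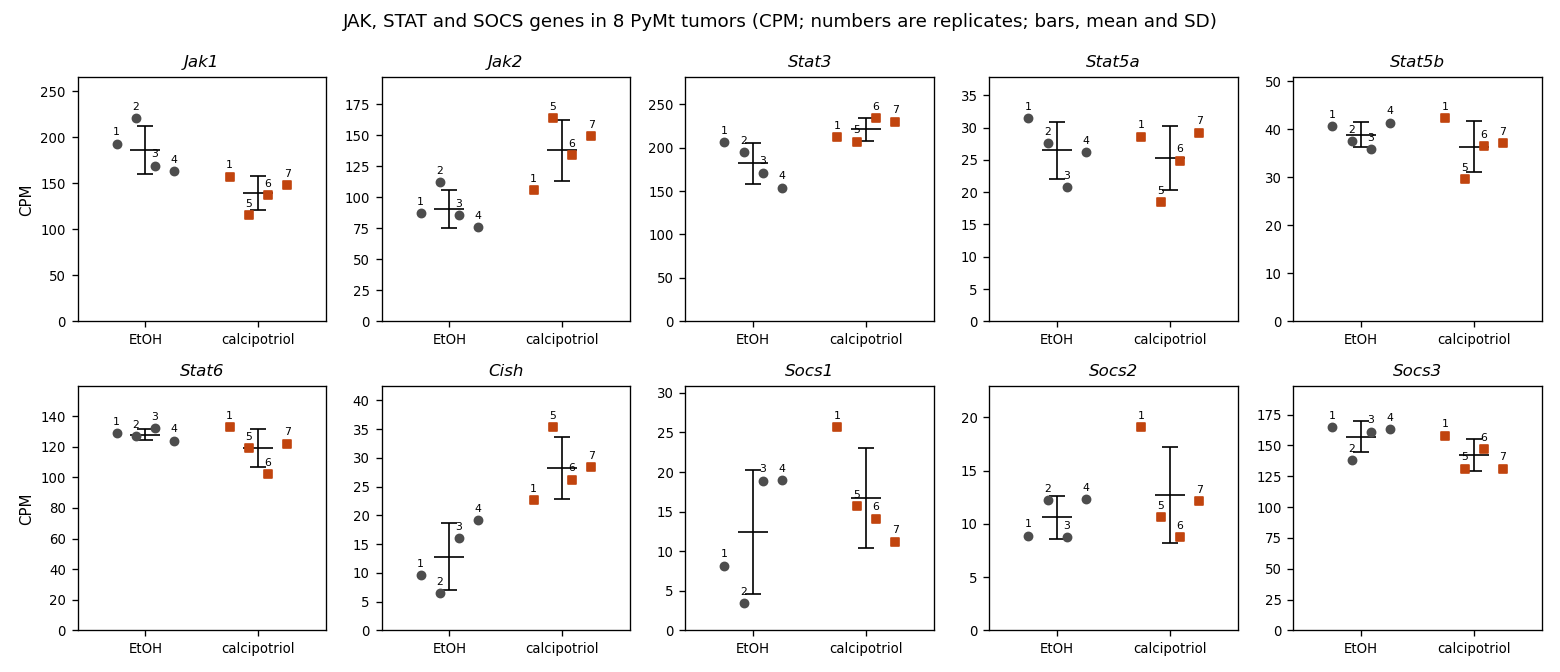
CPM of the 10 genes in each tumor, with EtOH as grey circles and calcipotriol as orange squares; numbers are replicates, and bars give the mean and SD of 4 tumors. Cish was at 6.52 to 19.2 CPM with EtOH and at 22.6 to 35.4 CPM with calcipotriol, while Socs1 spread from 3.46 to 19 CPM within EtOH.

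Of the kinases, Jak2 lies on chr19:29251828-29313080, forward strand (GRCm38), and Jak1 on chr4:101152367-101265282, reverse strand. Jak2 was at 87.3, 112, 85.7 and 76.1 CPM in EtOH replicates 1, 2, 3 and 4 and at 106, 164, 134 and 149 CPM in calcipotriol replicates 1, 5, 6 and 7. The groups overlapped, because calcipotriol replicate 1 lay under EtOH replicate 2. The log2 fold change of Jak2 was 0.61 (95% interval 0.24 to 0.98, unadjusted p = 0.00399, adjusted p = 0.0822 from edgeR). Without calcipotriol replicate 1 it was 0.72 (adjusted p = 0.0237 from edgeR), and DESeq2 with all tumors gave 0.62 (adjusted p = 0.0153); over all alternatives the adjusted p was 0.0153 to 0.204. Jak1, which pairs with many cytokine receptors, was at 193, 221, 169 and 163 CPM with EtOH and at 157, 115, 137 and 148 CPM with calcipotriol. Each calcipotriol-treated tumor lay below each EtOH-treated tumor. For Jak1 the log2 fold change was -0.42 (95% interval -0.74 to -0.10, unadjusted p = 0.0153, adjusted p = 0.156 from edgeR).

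On a scale per length, as CPM per kilobase of annotated exon, Jak1 was at 25.8 ± 3.65 (SD, n = 4) and Jak2 at 18 ± 3.06 (SD, n = 4) with EtOH. With calcipotriol the order was the other way, with Jak1 at 19.3 ± 2.55 and Jak2 at 27.4 ± 4.91 CPM per kilobase (SD, n = 4). The tumors of the kinases did not overlap with EtOH, at 22.5 to 30.6 for Jak1 and 15.1 to 22.3 for Jak2, and overlapped with calcipotriol, at 15.9 to 21.8 and 21.1 to 32.6 CPM per kilobase. This reversal was seen after the values were known and was not tested. The order of the kinases in each group also depends on the gene lengths used.

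The 3 transcription factor genes Stat3, Stat5a and Stat5b are neighbours on chromosome 11. Stat3 (chr11:100885098-100939540, reverse strand) and Stat5a (chr11:100859351-100885169, forward strand) overlap at their ends, and whether the counting used strand is not given in the sources used here. Stat3, which acts downstream of the IL-6 family, was at 206, 195, 171 and 154 CPM with EtOH and at 212, 207, 234 and 230 CPM with calcipotriol. The groups did not overlap, but EtOH replicate 1 and calcipotriol replicate 5 were nearly equal. Stat3 had a log2 fold change of 0.28 (95% interval -0.00 to 0.56, adjusted p = 0.273 from edgeR). Stat5a was at 31.5, 27.6, 20.8 and 26.2 CPM with EtOH and at 28.6, 18.5, 24.9 and 29.2 CPM with calcipotriol. Stat5b (chr11:100780731-100850724, reverse strand) was at 40.7, 37.5, 35.9 and 41.4 CPM with EtOH and at 42.4, 29.6, 36.5 and 37.1 CPM with calcipotriol. Both overlapped between the groups, and calcipotriol replicate 5 was the lowest of all tumors for both. Their log2 fold changes had 95% intervals of -0.48 to 0.35 for Stat5a and -0.41 to 0.22 for Stat5b. The sign for Stat5a turned when EtOH replicate 1 or calcipotriol replicate 5 was left out (0.03 and 0.06). The closely related genes Stat5a and Stat5b each had estimated counts that were not whole in 6 of 8 tumors, against 0 tumors for the other 8 genes, so some of their reads were divided between genes in the counting and the division is uncertain. Stat6, the transcription factor of IL-4 and IL-13 (chr10:127642986-127660957, forward strand), was at 129, 127, 132 and 124 CPM with EtOH and at 133, 119, 102 and 122 CPM with calcipotriol. The groups overlapped, and the log2 fold change of Stat6 was -0.10 (95% interval -0.36 to 0.15, adjusted p = 0.688 from edgeR). Stat6 also overlaps Nab2 on the opposite strand.

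Cish, an inhibitor that STAT5 switches on, had the smallest p of the 10 genes. Cish (chr9:107296026-107302784, forward strand) was at 9.58, 6.52, 16 and 19.2 CPM in EtOH replicates 1, 2, 3 and 4 and at 22.6, 35.4, 26.2 and 28.4 CPM in calcipotriol replicates 1, 5, 6 and 7. All calcipotriol-treated tumors lay above all EtOH-treated tumors, and within EtOH replicates 1 and 2 lay below replicates 3 and 4. The log2 fold change of Cish was 1.13 (95% interval 0.45 to 1.81, unadjusted p = 0.00398, adjusted p = 0.0822 from edgeR). It was 1.14 with DESeq2 (adjusted p = 0.00972) and 1.14 with edgeR without a filter on low counts (adjusted p = 0.0308), and over all alternatives the adjusted p was 0.00972 to 0.204.

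Socs1, an inhibitor of interferon signaling (chr16:10782240-10785536, reverse strand), was at 8.17, 3.46, 18.9 and 19 CPM with EtOH and at 25.7, 15.7, 14.1 and 11.2 CPM with calcipotriol. The highest value was in calcipotriol replicate 1, EtOH replicates 1 and 2 were the lowest, and the groups overlapped. Socs1 had a log2 fold change of 0.43 (95% interval -0.61 to 1.47, adjusted p = 0.681 from edgeR), 0.14 without calcipotriol replicate 1 and 0.12 to 0.71 over all tumors left out in turn (adjusted p 0.492 to 0.91 over all alternatives). Socs2, an inhibitor of growth hormone signaling (chr10:95385362-95417180, reverse strand), was at 8.9, 12.2, 8.75 and 12.3 CPM with EtOH and at 19.1, 10.6, 8.75 and 12.1 CPM with calcipotriol. Only calcipotriol replicate 1 lay above the EtOH range. The log2 fold change of Socs2 was 0.26 (95% interval -0.33 to 0.85) and -0.01 without calcipotriol replicate 1 (adjusted p = 0.652 and 0.993 from edgeR). Socs3, an inhibitor that STAT3 switches on (chr11:117966079-117970047, reverse strand), was at 165, 138, 161 and 163 CPM with EtOH and at 158, 131, 147 and 131 CPM with calcipotriol. The groups overlapped, since EtOH replicate 2 lay among the calcipotriol-treated tumors. Socs3 had a log2 fold change of -0.15 (95% interval -0.41 to 0.12, adjusted p = 0.561 from edgeR).

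**Figure D2:**
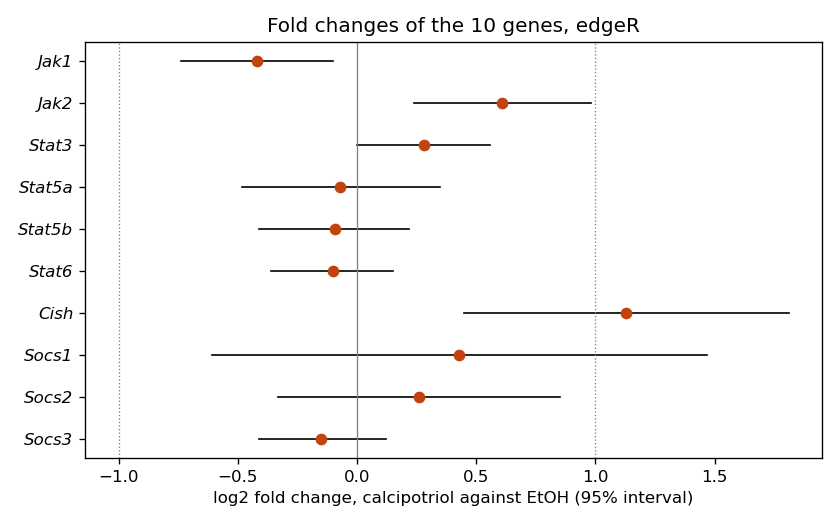
Log2 fold change of each gene, calcipotriol against EtOH (points), with its 95% interval from edgeR (lines); dotted lines mark a log2 fold change of 1 in either direction. The intervals of Jak1, Jak2 and Cish exclude 0.

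In CPM per kilobase with EtOH, Socs3 was the highest of the 10 genes, at 54.2 ± 4.35 (SD, n = 4). Stat6 followed at 29.1 ± 0.793, Jak1 at 25.8 ± 3.65, Stat3 at 19.1 ± 2.46 and Jak2 at 18 ± 3.06 CPM per kilobase. Stat5b was at 7.02 ± 0.469, Socs1 at 4.26 ± 2.69, Stat5a at 3.72 ± 0.621, Cish at 2 ± 0.904 and Socs2 at 1.11 ± 0.21 CPM per kilobase. Stat6 and Jak1 overlapped over the tumors, as did Stat3 and Jak2, Stat5b and Socs1, Socs1 and Stat5a, Stat5a and Cish, and Cish and Socs2. The length joins the exons of all annotated transcripts of a gene, 6419 bases for Cish and 9531 bases for Socs2. A gene with little-used exons can thus be placed too low, and the order of the genes depends on this length.

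Ratios within a tumor do not depend on the scaling of libraries, but their size depends on the gene lengths used. The ratio of Cish to Stat5a and Stat5b together, per length, was 0.127, 0.0955, 0.266 and 0.268 with EtOH and 0.302, 0.695, 0.406 and 0.41 with calcipotriol. The groups did not overlap, and the log2 difference was 1.33 (two-sided exact permutation p = 0.0286, adjusted p = 0.114 over 4 ratios). The unadjusted value is the smallest that the 70 arrangements of the tumors can give. The ratio of Socs3 to Stat3 was 2.63, 2.32, 3.11 and 3.47 with EtOH and 2.45, 2.09, 2.07 and 1.87 with calcipotriol. Only calcipotriol replicate 1 lay within the EtOH range, and the log2 difference was -0.43 (exact permutation p = 0.0571, adjusted p = 0.114). The log2 difference was 0.32 for Socs2 to Stat5 (exact permutation p = 0.257, adjusted p = 0.343) and 0.03 for Stat5a to Stat5b (exact permutation p = 0.8, adjusted p = 0.8).

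Of 10455 other protein-coding genes with a mean of at least 5 CPM, the 3 whose log2 CPM over the 8 tumors lay nearest to that of Cish, after centring each gene, were Hmox1, Timp1 and Hsph1. Their root mean square differences from Cish were 0.21, 0.23 and 0.23 on the log2 scale. Hmox1, a heme-degrading enzyme, was at 51.3, 52.7, 106 and 118 CPM with EtOH and at 160, 262, 223 and 218 CPM with calcipotriol. As for Cish, EtOH replicates 1 and 2 were the lowest.

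STAT proteins bind the letters TTCNNNGAA, where N is any base. RefSeq promoter windows of 300 bases (250 before to 50 after the start, GRCm38.p6) were at hand for 9 of 10 genes; Socs2 was the exception. The motif reads the same on both strands. It was in the windows of 2 genes, Cish and Socs3, and in 8.3% of all 32851 windows; 0.457% held it at least 2 times, as Cish does. With 4 bases between the outer letters, the spacing that STAT6 also binds, it was in 0 of the 9 genes and in 6.95% of all windows. The stretches of 30 bases around the matches are shown because Cish and Socs3 differ in their fold change, with the motif in capitals.
Cish, chr9:107296654-107296683, forward strand: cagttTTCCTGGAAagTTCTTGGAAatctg
Socs3, chr11:117969501-117969530, reverse strand: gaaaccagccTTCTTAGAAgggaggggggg
The Cish matches begin at the RefSeq start and 11 bases after it. In GENCODE they lie in an exon of 1 of the 5 Cish transcripts and upstream of the other 4. The Socs3 match begins 154 bases before the RefSeq start, upstream of 2 of the 3 Socs3 transcripts and in an intron of the third. A match describes the letters only; binding was not measured.

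The other JAK, STAT and SOCS genes were 9, all tested, and 6 were higher with calcipotriol (median log2 fold change 0.22, against 0.02 over all genes). None passed both thresholds in edgeR (0 of 9, against 2.02% of all genes). Of the 9, 3 had an unadjusted p under 0.05 (18.4% of all genes), and 1 had an adjusted p under 0.05 (2.74% of all genes). That gene, Socs5, an inhibitor linked to IL-4 and EGF receptors, was at 114, 109, 138 and 129 CPM with EtOH and at 187, 185, 177 and 189 CPM with calcipotriol. The groups lay well apart. Socs5 rose by 0.59 in log2 (SE 0.12, adjusted p = 0.0279 from edgeR), under the fold change minimum, and its adjusted p was 0.0502 to 0.0854 without EtOH replicate 1, 2 or 4 or calcipotriol replicate 5, 6 or 7. Socs4 had a log2 fold change of 0.39 (adjusted p = 0.176).

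Of 17 phosphatases, PIAS proteins and adaptors, 12 were lower with calcipotriol (median log2 fold change -0.15, against 0.02 over all genes). None passed both thresholds in edgeR (0 of 17, against 2.02% of all genes), and 4 had an unadjusted p under 0.05, against 18.4% of all genes. Sh2b3, an adaptor that restrains Jak2 in blood cells, was at 78.4, 81.7, 63.2 and 68.3 CPM with EtOH and at 54.9, 29.5, 37.3 and 37.8 CPM with calcipotriol. The groups did not overlap, and calcipotriol replicate 1 was the nearest to EtOH. Sh2b3 fell by 0.87 in log2 (SE 0.19, adjusted p = 0.0376 from edgeR). Its log2 fold change was -1.06 without calcipotriol replicate 1 (adjusted p = 0.00426), and its adjusted p was 0.0605 to 0.121 without any other single tumor. Ptpn6, a phosphatase of blood cells, had a log2 fold change of -0.74 (adjusted p = 0.21) and of -1.05 without calcipotriol replicate 1 (adjusted p = 0.0332, and 0.0332 to 0.435 over all alternatives). Grb2, an adaptor, had a log2 fold change of -0.44 (adjusted p = 0.192) and of -0.62 without calcipotriol replicate 1 (adjusted p = 0.0144, and 0.0144 to 0.415 over all alternatives).

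Of 37 ligands that signal through JAK kinases, 16 were tested. Some of these, such as Il24 and Il11, had enough counts mainly with calcipotriol, so no median is given. Past both thresholds 2 were higher and 0 lower, against 1.07% and 0.948% of all genes. Clcf1, a ligand of the IL-6 family, was at 55.6, 28.7, 39.9 and 40.8 CPM with EtOH and at 67.8, 104, 115 and 92.3 CPM with calcipotriol. Clcf1 rose by 1.20 in log2 (SE 0.22, adjusted p = 0.0207 from edgeR). Its call was lost without EtOH replicate 2 or 3 or calcipotriol replicate 5, 6 or 7 (adjusted p 0.0516 to 0.0706). Tslp, a cytokine that acts through Jak1, Jak2 and STAT5, was at 7.78, 7.11, 7.9 and 9.04 CPM with EtOH and at 13.5, 52.2, 24.1 and 22.6 CPM with calcipotriol. Tslp rose by 1.82 in log2 (adjusted p = 0.0276 from edgeR), and its call was lost without EtOH replicate 1, 2, 3 or 4 or calcipotriol replicate 6 or 7 (adjusted p 0.0522 to 0.079) and with limma-voom (adjusted p = 0.0679). Lif was at 15.1, 13.3, 42.1 and 37.6 CPM with EtOH and at 62.2, 72.4, 73.1 and 72 CPM with calcipotriol. The groups did not overlap (log2 fold change 1.37, adjusted p = 0.0638 from edgeR). Lif passed both thresholds with DESeq2 (1.38, adjusted p = 0.00158), limma-voom (1.52, adjusted p = 0.0321), edgeR without a filter (1.38, adjusted p = 0.0116) and edgeR without EtOH replicate 3 (1.67, adjusted p = 0.049); over all alternatives the adjusted p was 0.00158 to 0.156. Csf3 was at 0 to 1.07 CPM with EtOH and at 1.07, 35.6, 7.35 and 4.07 CPM with calcipotriol (log2 fold change 4.71, adjusted p = 0.0608 from edgeR). It passed with DESeq2 (adjusted p = 0.00878), without a filter (adjusted p = 0.00902 from edgeR) and without calcipotriol replicate 1 (5.09, adjusted p = 0.0144 from edgeR). Calcipotriol replicate 5 was far above the other tumors, and without it the log2 fold change of Csf3 was 3.18 (adjusted p = 0.197 from edgeR); the adjusted p was 0.00878 to 0.376 over all alternatives. Il24 was at 0 to 1.15 CPM and at 2.07 to 5.53 CPM (log2 fold change 3.18, adjusted p = 0.088 from edgeR). It passed with DESeq2 (3.21, adjusted p = 0.00282), without a filter (3.19, adjusted p = 0.0466 from edgeR) and without EtOH replicate 4 (4.47, adjusted p = 0.0371 from edgeR), and the adjusted p was 0.00282 to 0.223 over all alternatives.

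Of 42 receptors that use JAK kinases, 31 were tested. With calcipotriol 12 of them were higher and 19 lower, against 52.1% of all genes higher. Some receptors, such as Il2rb, had enough counts mainly with calcipotriol, so no median is given. Past both thresholds 1 was higher and 1 lower, against 1.07% and 0.948% of all genes. Osmr, the receptor chain of oncostatin M, was at 15.2, 15.4, 27.9 and 23.3 CPM with EtOH and at 58.1, 81.4, 61.6 and 77.3 CPM with calcipotriol, and its call was kept with each tumor left out. Csf2rb, the shared receptor chain of GM-CSF, IL-3 and IL-5, was at 39.3, 42.5, 46 and 37.3 CPM with EtOH and at 23.2, 13.3, 13.7 and 14.4 CPM with calcipotriol. Csf2rb fell by 1.35 in log2 (SE 0.20, adjusted p = 0.009 from edgeR), and its call too was kept with each tumor left out. Il13ra1, a receptor chain of IL-13, rose by 0.81 (adjusted p = 0.0137 from edgeR), under the fold change minimum. Ifngr1 had a log2 fold change of -0.57 (adjusted p = 0.0668 from edgeR), -0.71 without calcipotriol replicate 1 (adjusted p = 0.00911 from edgeR) and -0.56 with DESeq2 (adjusted p = 0.0118); its adjusted p was 0.00911 to 0.202 over all alternatives. Csf2ra had a log2 fold change of -1.03 (adjusted p = 0.0679 from edgeR) and passed both thresholds without calcipotriol replicate 1 (-1.33, adjusted p = 0.00604 from edgeR), without a filter (-1.02, adjusted p = 0.0276 from edgeR), with DESeq2 (-1.02, adjusted p = 0.00707) and with limma-voom (-1.09, adjusted p = 0.0452); its adjusted p was 0.00604 to 0.174 over all alternatives.

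**Figure D3:**
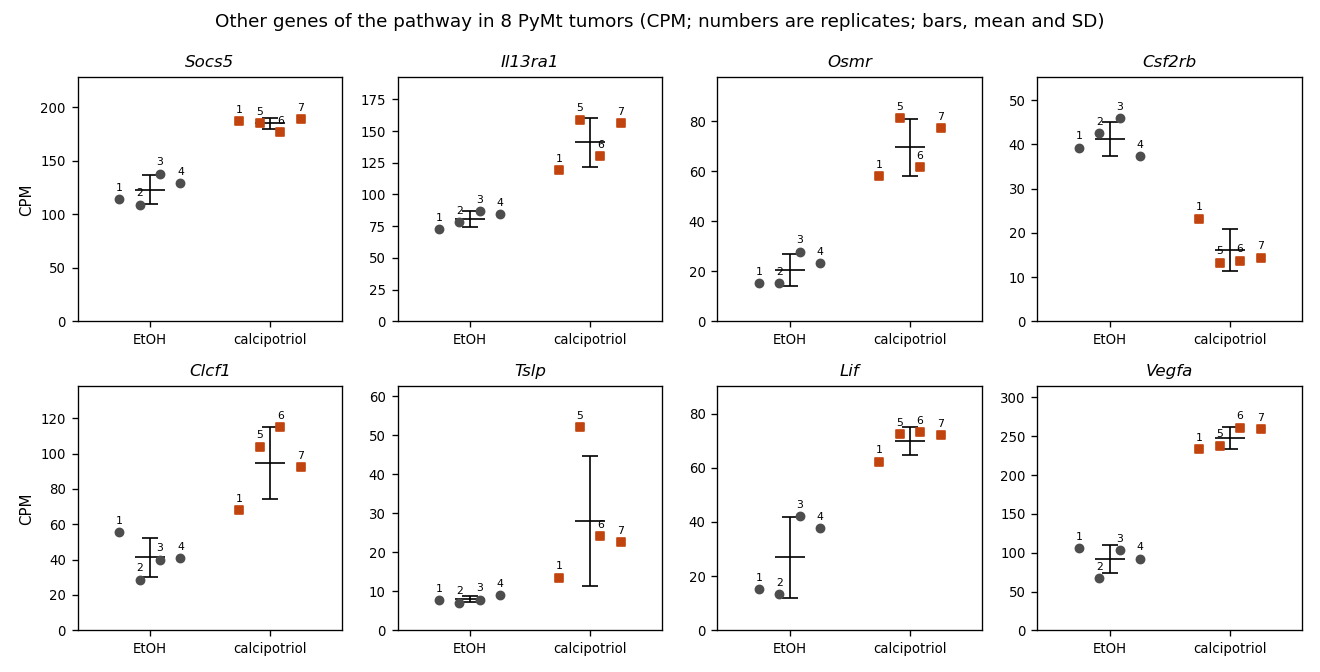
CPM of 8 other genes of the pathway in each tumor, with EtOH as grey circles and calcipotriol as orange squares; numbers are replicates, and bars give the mean and SD of 4 tumors. Socs5 was at 177 to 189 CPM with calcipotriol and at 109 to 138 CPM with EtOH, and Osmr at 58.1 to 81.4 CPM and at 15.2 to 27.9 CPM.

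Csf2rb and Sh2b3 were lower beside markers of macrophages. All 9 of 9 macrophage markers were lower (median log2 fold change -0.84, against 0.02 over all genes), 2 of them past both thresholds, against 0.948% of all genes, and C1qa was the most abundant. Their sum was 1867, 1007, 1002 and 811 CPM in calcipotriol replicates 1, 5, 6 and 7, and no marker was at 0 in all tumors. The 8 endothelial markers, with Cdh5 the most abundant, were all lower too, 5 of them past both thresholds, against 0.948% of all genes. They summed to 337, 371, 168 and 172 CPM with EtOH and to 123, 69.2, 91.7 and 97.6 CPM with calcipotriol. The 7 erythroid markers summed to 5598, 5838, 3511 and 3460 CPM with EtOH and to 821, 435, 609 and 532 CPM with calcipotriol, with Hbb-bs the most abundant. In bulk RNA, fewer cells of a type and less RNA per cell cannot be told apart. The part of these cells in the results was not tested.

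Of 15 known STAT3 target genes, all tested, 9 were higher with calcipotriol, against 52.1% of all genes, and the median log2 fold change was 0.19, against 0.02. Past both thresholds 4 were higher and 0 lower, against 1.07% and 0.948% of all genes. This list and those of the other STATs below were chosen with earlier results of these data known. Their counts are therefore no test of STAT activity. Vegfa, an angiogenic growth factor, was at 106, 66.9, 103 and 92.4 CPM with EtOH and at 233, 238, 261 and 259 CPM with calcipotriol. Lcn2, which binds iron carriers, was at 13.7, 15.5, 10.9 and 15 CPM with EtOH and at 43, 184, 79.3 and 85 CPM with calcipotriol. The calls of Vegfa and Lcn2 were kept with each tumor left out. Timp1 rose by 1.18 and Fos by 1.15 in log2 (adjusted p = 0.0432 and 0.0379 from edgeR). The call of Timp1 was lost without EtOH replicate 1, 2 or 3 or calcipotriol replicate 5, 6 or 7 (adjusted p 0.0598 to 0.123), and that of Fos without any tumor but calcipotriol replicate 1 (adjusted p 0.054 to 0.114). Icam1 had a log2 fold change of -1.20 (adjusted p = 0.174), and of -1.85 without calcipotriol replicate 1 (adjusted p = 0.0067, and 0.0067 to 0.368 over all alternatives). Cebpd and Il4ra had log2 fold changes of 0.53 and 0.19 (adjusted p = 0.34 and 0.451).

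Of 11 known STAT5 target genes, 8 were tested and 3 were higher (median log2 fold change -0.08, against 0.02 over all genes). The list leaves out the 10 genes of the core, and so Cish, which STAT5 switches on. Cish had a log2 fold change of 1.13 (adjusted p = 0.0822 from edgeR). Pim1 and Bcl2l1 are on the STAT3 list as well. None passed both thresholds in edgeR (0 of 8), and 0 had an unadjusted p under 0.05, against 2.02% and 18.4% of all genes. The milk protein genes Csn2 and Wap had 0 counts in all tumors. Tnfrsf11a, Ccnd1 and Bcl2l1 had log2 fold changes of -0.67, -0.20 and -0.11 (adjusted p = 0.282, 0.769 and 0.775 from edgeR). Ccnd1 was at 371 and 401 CPM in EtOH replicates 1 and 2 and at 886 and 815 CPM in EtOH replicates 3 and 4.

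Of 11 known STAT6 target genes, 9 were tested. Past both thresholds 3 were higher and 0 lower, against 1.07% and 0.948% of all genes; Retnla had enough counts mainly with calcipotriol. Chil3, a chitinase-like protein of macrophages, was at 2.29, 4.82, 23.9 and 25.2 CPM with EtOH and at 57.9, 1940, 283 and 279 CPM with calcipotriol. Calcipotriol replicate 5 was far above the rest. With 1 tumor left out, Chil3 passed without calcipotriol replicate 1 and had an adjusted p of 0.0616 to 0.0968 without any other tumor; with limma-voom its adjusted p was 0.057. Retnla, another gene of IL-4-treated macrophages, was at 0.243, 0, 1.26 and 1.06 CPM with EtOH and at 6, 9.82, 22.2 and 18.8 CPM with calcipotriol. Its call was lost without EtOH replicate 1 or calcipotriol replicate 6 or 7 (adjusted p 0.0611 to 0.0771) and with limma-voom (adjusted p = 0.108). Ccl24, a chemokine, was at 0.729 to 1.72 CPM with EtOH and at 3.69 to 17.3 CPM with calcipotriol, and its call was kept with each tumor left out but lost with limma-voom (adjusted p = 0.0961). Clec10a had a log2 fold change of 2.40 (adjusted p = 0.0653 from edgeR). It passed without calcipotriol replicate 1 (2.60, adjusted p = 0.034 from edgeR), without EtOH replicate 4 (2.93, adjusted p = 0.0486 from edgeR), without a filter (2.41, adjusted p = 0.0125 from edgeR) and with DESeq2 (2.41, adjusted p = 0.000778), and its adjusted p was 0.000778 to 0.178 over all alternatives. Alox15 had a log2 fold change of -3.60 (adjusted p = 0.144) and Mrc1 of -0.45 (adjusted p = 0.228). Alox15 was at 26.1 and 20.5 CPM in EtOH replicates 3 and 4 and under 1 CPM in EtOH replicates 1 and 2.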

How the data were processed

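The authors deposited a table of expected counts per gene, with a column for each of 8 tumors and 0 columns of other samples. The submitters' processing notes name STAR 2.5.3, RSEM 1.3.1, DESeq2 1.24.0 and GRCm38, and the annotation is not given in the sources used here. Expected counts were rounded to whole numbers, and 52133 of 55414 identifiers had a symbol in GENCODE M21 (GRCm38). Groups came from the sample labels.

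The fit used edgeR 4.0.16 in R 4.3.3 (filterByExpr, TMM, glmQLFit and glmQLFTest), with Benjamini-Hochberg adjustment over all genes tested. CPM used TMM library sizes, and log2 CPM a prior count of 2. Levels per length used the length of the annotated exons of all transcripts of a gene, joined together. For ratios the test was an exact permutation test, two-sided. Tests were checked on simulated data with known changes.

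Alternatives were DESeq2's size factors, no filter on low counts, at least 10 counts in every tumor, DESeq2 1.42.0, limma-voom (limma 3.58.1), no fold change minimum, 1 count added to ratios and each tumor left out in turn. Named genes were the 10 genes, and from each other pathway list every gene past both thresholds and the 3 with the smallest p among the rest, and the 3 nearest in pattern to the member with the smallest p. Of these named genes and lists, 1 gene and 1 list are not reported here. Members and lists were chosen with earlier results of these data known. Floors of 3 counts cover counting error only.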

Additional observations from a re-analysis of the deposited data

Results flagged for a closer look

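A tumor was set apart from the 4 of its group where the distance to its closest neighbour, on log2 of CPM plus 0.1, took a share of the group's range above Dixon's critical value for 4 samples. Chance does this in about 1 group in 20, or 4.5 of the 90 groups of the 45 genes examined, and 5 were set apart. Socs3 was at 138 CPM in EtOH replicate 2, far from the other EtOH-treated tumors at 161 to 165 CPM. Lif was at 62.2 CPM in calcipotriol replicate 1, against 72 to 73.1 CPM in the remaining 3 tumors of that group. Csf2rb was at 23.2 CPM in calcipotriol replicate 1, against 13.3 to 14.4 CPM. Fos was at 370 CPM in calcipotriol replicate 1, against 642 to 700 CPM. Ccl24 was at 1.72 CPM in EtOH replicate 4, against 0.729 to 0.779 CPM in EtOH replicates 1, 2 and 3.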

How the results depend on the processing

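No paired analysis was possible because the labels give no pairing of tumors between the groups. The number of genes past both thresholds was 292 with all tumors, 458 without a filter on low counts, 644 with DESeq2 and 110 to 642 with each tumor left out, the highest without calcipotriol replicate 1. Of the 10 genes, 0 passed both thresholds with all tumors, 1 without a filter and 1 with DESeq2. By adjusted p alone the count was 0 with all tumors, 1 without a filter, 2 with DESeq2 and 0 to 1 with each tumor left out, the 1 being Jak2 without calcipotriol replicate 1. The log2 fold change of Jak2 was 0.62 with DESeq2 and 0.52 to 0.73 with each tumor left out. That of Cish was 1.14 without a filter, 1.14 with DESeq2 and 0.91 to 1.39 with each tumor left out. With each tumor left out, the sign turned for Stat5a (-0.17 to 0.06), Socs2 (-0.01 to 0.41), Ccnd1 (-0.37 to 0.03), Bcl2l1 (-0.18 to 0.01) and the log2 ratio of Stat5a to Stat5b (-0.05 to 0.09). The cause was not tested, and fits with a tumor left out have fewer samples. DESeq2's size factors moved the median log2 fold change of all genes by 0.00. Among genes of the other lists, the side of the 0.05 threshold was lost in 61 and gained in 29 comparisons with an alternative, and neither side nor direction changed in 395. With 4 tumors a group, the 95% interval of Socs1 was -0.61 to 1.47.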

Other observations

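Marker lists of other cell types were also summed. Fibroblast markers summed to 1227, 1348, 2473 and 2259 CPM in EtOH replicates 1, 2, 3 and 4 and to 1771, 1771, 2999 and 3443 CPM in calcipotriol replicates 1, 5, 6 and 7. In EtOH replicates 1, 2, 3 and 4, Col1a1 was at 303, 271, 1155 and 1040 CPM, and Dcn the other way at 456, 616, 319 and 292 CPM. With calcipotriol Dcn was at 318, 991, 1259 and 1377 CPM and Col1a1 at 760, 284, 789 and 1013 CPM, and the median log2 fold change of the 7 markers was 0.06, against 0.02 over all genes. Neutrophil markers summed to 94.6, 107, 33.4 and 31.4 CPM with EtOH and to 40.4, 154, 66.7 and 48.3 CPM with calcipotriol. The 5 B cell markers summed to at most 2.69 CPM in any tumor. T cell markers summed to 4.43, 4.38, 1.7 and 1.98 CPM with EtOH and to 17.3, 6.9, 4.57 and 3.6 CPM with calcipotriol. Of the 9 T cell markers 6 were tested. With EtOH sums this low, a marker could reach the test mainly through its counts with calcipotriol. The direction and median of the tested T cell markers are therefore not given. None of the 6 passed both thresholds in edgeR (0 of 6, against 2.02% of all genes). Mast cell and basophil markers summed to 7.88, 10.9, 37.3 and 40 CPM with EtOH and to 11.6, 36.5, 19.9 and 21.5 CPM with calcipotriol. The split of EtOH replicates 1 and 2 from replicates 3 and 4 is thus seen in the sums of neutrophil and mast cell markers as well as in Cish and Socs1.

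Of the 9 epithelial markers, 6 were higher and 3 lower with calcipotriol, against 52.1% of all genes higher. Past both thresholds in edgeR 2 were higher and 0 lower, against 1.07% and 0.948% of all genes. These 2 had enough counts for a test mainly with calcipotriol, so this count is not a result about the markers. The 9 epithelial markers summed to 1253, 1322, 1017 and 1086 CPM with EtOH and to 901, 611, 739 and 659 CPM with calcipotriol. The most abundant of them, Krt8, had a log2 fold change of -0.69 (adjusted p = 0.0966 from edgeR). Cdh1, Krt5 and Cldn4 overlapped between the groups, with log2 fold changes of 0.45, -0.27 and 2.04 (adjusted p = 0.634, 0.927 and 0.453 from edgeR). Krt18, Krt14 and Cldn3 are named here after their values were seen. Krt18 fell by 0.93 in log2 (edgeR, adjusted p = 0.0162), and its adjusted p was 0.0606 and 0.056 without calcipotriol replicate 6 and 7. Krt14, a basal keratin, was at 0 to 1.5 CPM with EtOH and at 1.59, 10.2, 46.3 and 43.4 CPM with calcipotriol. Cldn3, a tight junction gene, was at 0.176 to 0.778 CPM with EtOH and at 4.03 to 7.95 CPM with calcipotriol. Krt14 and Cldn3 rose past both thresholds (adjusted p = 0.0336 and 0.00654 from edgeR), but both had enough counts for a test mainly with calcipotriol, so the size of the change is uncertain. Cldn3 also passed with each tumor left out, while the adjusted p of Krt14 was 0.0583 to 0.1 without any tumor but calcipotriol replicate 1 and 0.446 with limma-voom.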
